A study of Mus musculus with 6 samples.

Results

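The genes described here build ribosomes: 44 genes for RNA polymerase I and its factors, for the proteins that fold, modify and cut ribosomal RNA in the nucleolus, and for Myc. They were taken as a list by symbol, in a choice made with earlier results of these data known. Of the 44, 42 were measured by a probe set annotated to exactly 1 gene, among 17020 genes tested in all. Npm3 and Noc2l had no probe set of their own and have no value here. All of the 42 passed the filter on dim probe sets.

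Gene expression was measured in chondrocytes of the growth plate, the cartilage in which long bones grow, from the femurs and tibiae of mice at postnatal day 30. The samples were 3 conditional Lkb1 mutants and 3 controls, all on a mixed FVB, 129S6 and C57CL/6 background, each on an Affymetrix array of its own, read in 1 colour. Lkb1 is the older name of Stk11, a kinase that activates AMPK and related kinases. The sources used here do not give the deleted part of the gene, the driver of the recombination or the genotype of the controls. The labels call the replicates biological without saying whether they came from separate animals, so p-values cover only the spread among the samples at hand, which may be technical.

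Stk11, the targeted gene, had 7.39, 7.51 and 7.52 in mutant replicates 1, 2 and 3, against 8.68, 9.08 and 9.67 in the controls (difference -1.67, SE 0.22, limma adjusted p = 0.00387). Its probes were not placed relative to the deleted part. With single arrays left out the difference of Stk11 was -1.90 to -1.41 (limma adjusted p from 0.000799 to 0.0223). Against control replicate 1 alone it was -1.21. With the mean level of marrow markers as a covariate it was 0.27 (limma adjusted p = 0.706). That fit, described further on, extends the trend within each group over a range without arrays.

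Ribosome production starts when RNA polymerase I copies the ribosomal DNA repeats into a long precursor RNA. Small nucleolar ribonucleoproteins modify the precursor, and processing complexes cut it and fold it into the small and the large subunit. Myc drives many of these genes in growing and dividing cells, and signalling through mTOR, which AMPK restrains, adjusts the rate of the process.

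Ribosome biogenesis genes differed little between mutant and control growth plates. Of the 42 genes, 3 rose (Polr1c, Gnl3 and Ebna1bp2) and 0 fell in limma's test at an adjusted p of 0.05, or 7.14%, against 14.7% of all 17020 genes tested. Over all genes, 7.84% rose and 6.82% fell. Without adjustment, 11 of the 42 had a p under 0.05, 9 of them higher and 2 lower in mutants, or 26.2% against 29.5% of all genes. Every difference among the 42 lay between -0.37 and 0.40 on the log2 scale, so none reached 1.5-fold. The median difference was 0.08, against 0.03 over all genes tested, and 32 of the 42 (76.2%) were above 0, against 55.0% of all genes.

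The precision was enough to bound most of these differences. For 40 of the 42 genes the 95% interval of the difference lay wholly within 1.5-fold in either direction, 95.2% against 70.1% of all genes tested. The exceptions were Polr1c, whose interval reached 0.59, and Ltv1, whose interval reached -0.62. These intervals are not adjusted for the number of genes. All 3 arrays of both groups exceeded the background, taken as the 95% point of 1035 olfactory receptor probe sets on the same array, for 40 of the 42. The exceptions were Polr1e, above it on 0 mutant arrays and 1 control array, and Rrs1, above it on 3 mutant arrays and 1 control array, so their differences are limited by background.

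**Figure D1:**
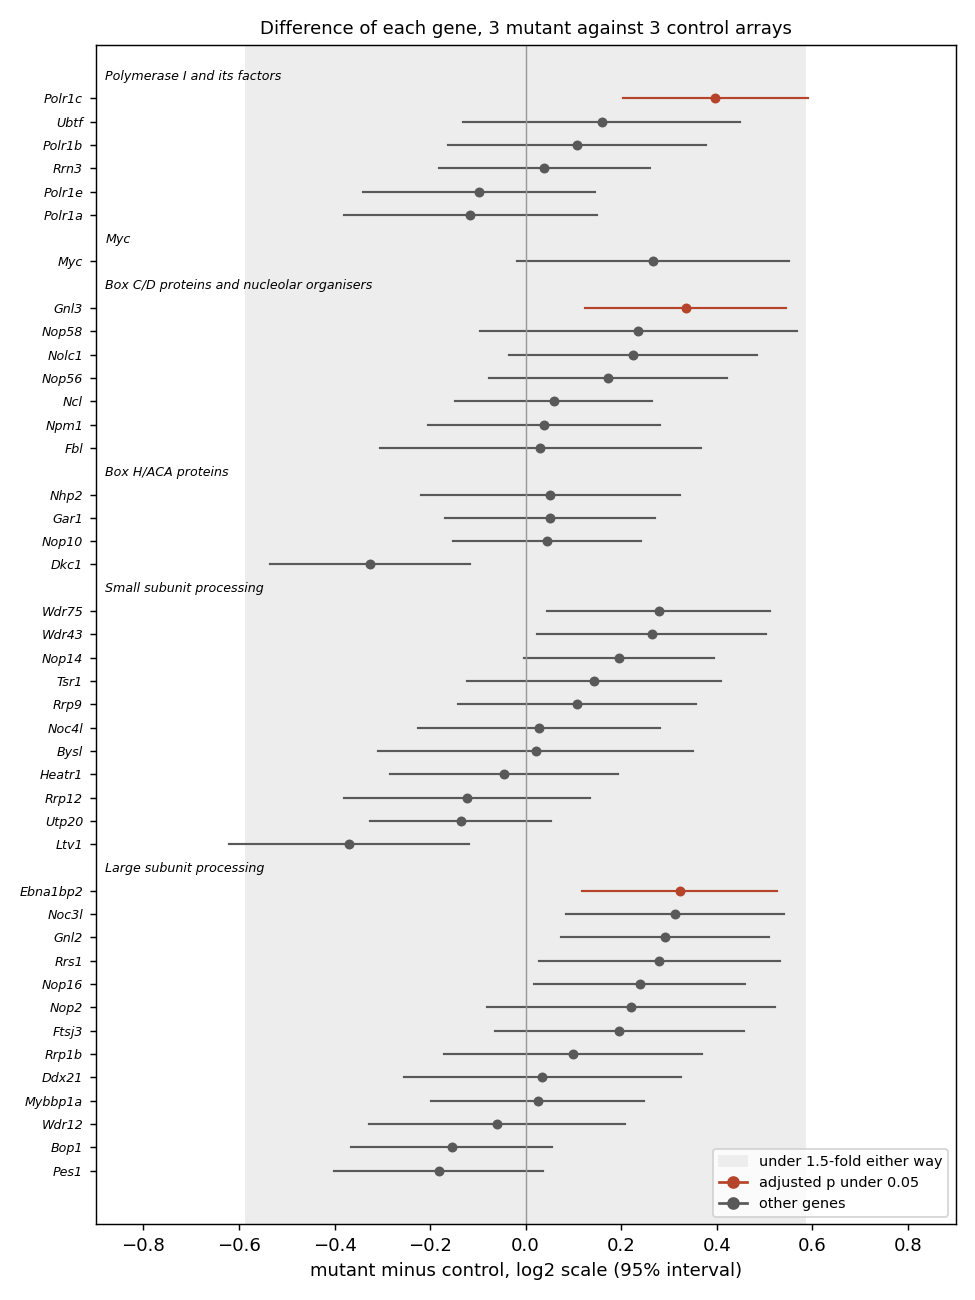
Difference between mutant and control arrays for each of the 42 genes (horizontal axis, log2 scale), grouped by role, with the 95% interval of the limma fit as a line. The grey band marks differences under 1.5-fold in either direction; red marks Polr1c, Gnl3 and Ebna1bp2, which had an adjusted p under 0.05.

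The calls changed with single arrays left out, among these genes and over all genes. With any 1 mutant replicate left out, or without control replicate 2, 0 of the 42 genes were called. Calls over all genes tested fell from 2496 to 1198, 1185 and 936 without mutant replicates 1, 2 and 3. They fell to 1329 without control replicate 2. Without control replicate 3, 1 of the 42 (Polr1c) and 2521 of all genes were called. Without control replicate 1, these counts were 3 and 3282. One mutant array stood above the others for this list. Mutant replicate 3 gave the highest of the 3 mutant values for 33 of the 42 genes, against 26.4% of all genes tested. Mutant replicate 1 gave the lowest for 28, against 37.1% of all genes. The median difference of the 42 genes was 0.04 without mutant replicate 3. It stayed between 0.06 and 0.13 without any other single array. Differences of single genes were less steady: for 27 of the 42, none of them called, leaving out 1 array moved the difference by over 1.5 times or turned its sign.

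**Figure D2:**
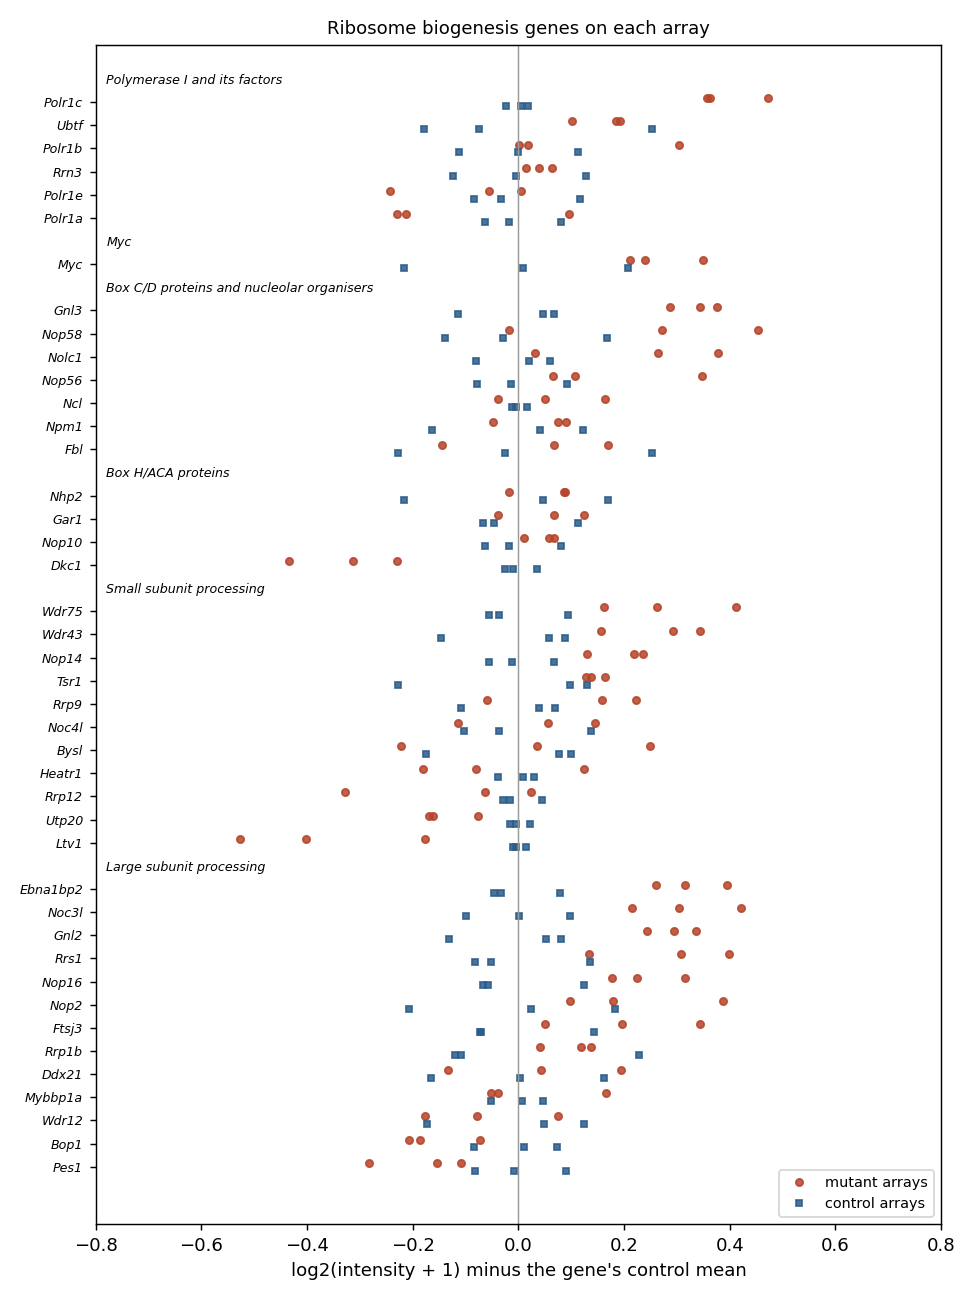
Level of each of the 42 genes on each array, as log2(intensity + 1) minus that gene's mean over the control arrays (horizontal axis), with mutant arrays as circles above control arrays as squares. For 28 of the 42 genes the groups overlap, and for 10 genes, Polr1c, Gnl3 and Ebna1bp2 among them, all mutant circles lie to the right of all control squares.

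The groups did not overlap for 14 of the 42 genes, 10 with every mutant array above every control array and 4 with every mutant array below. That is 33.3%, close to the 36.7% of all genes tested, of which 20.0% lay wholly above and 16.7% wholly below. The count of genes with separate groups therefore stood near the background.

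Among the subunits of RNA polymerase I and its initiation factors, 1 of 6 genes rose. Polr1c, a subunit that polymerases I and III share, had 8.93, 9.05 and 8.94 in mutant replicates 1, 2 and 3, against 8.55, 8.58 and 8.59 in control replicates 1, 2 and 3, as log2(intensity + 1). Every mutant array was above every control array, and the 3 controls lay within a narrow range. Polr1c rose by 0.40 (SE 0.08, n = 3 per group), 1.32-fold, with a limma adjusted p of 0.0198. Its difference stayed between 0.36 and 0.42 with single arrays left out, with limma adjusted p between 0.0240 and 0.0901, so the call, not the size, depended on them.

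The genes of the catalytic core were not called. Polr1a, which encodes its largest subunit, had 7.69, 7.71 and 8.02 in mutant replicates 1, 2 and 3, against 8.0, 7.90 and 7.86 in the controls. Polr1b, the next largest subunit, had 8.14, 8.12 and 8.43 in mutants, against 8.24, 8.01 and 8.12 in controls. For both, mutant replicate 3 was the highest of all 6 arrays while the other mutants lay among or below the controls. The differences were -0.12 for Polr1a (95% interval -0.38 to 0.15) and 0.11 for Polr1b (-0.16 to 0.38), and that of Polr1b was 0.01 without mutant replicate 3. Polr1e, a subunit that helps the enzyme start and elongate, had 6.26, 6.45 and 6.51 in mutants, against 6.62, 6.42 and 6.47 in controls, at the level of the background. The measured differences of the subunits had both signs, and the difference between Polr1c and the others was not tested.

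Ubtf encodes the upstream binding factor that keeps ribosomal DNA open, and Rrn3 the factor that makes the polymerase ready to initiate. Ubtf had 9.06, 8.97 and 9.05 in mutant replicates 1, 2 and 3, against 8.69, 8.79 and 9.12 in the controls. The mutants were close together, the controls spread over a wider range, and the difference of 0.16 was not called (limma adjusted p = 0.449). It was 0.07 without control replicate 1 and 0.29 without control replicate 3. Rrn3 had 8.87, 8.90 and 8.92 in mutants, against 8.99, 8.86 and 8.73 in controls, so the mutant values fell inside the control range. Its difference was 0.04 (95% interval -0.18 to 0.26).

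Of 16 other polymerase I subunits, shared subunits and ribosomal DNA factors, 0 rose and 1 fell, with a median of -0.04. Baz2a, part of a complex that silences ribosomal DNA repeats, had 7.05, 7.03 and 7.08 in mutants, against 7.47, 7.41 and 7.87 in controls. It fell by 0.53 (SE 0.13, limma adjusted p = 0.0358), and the call ended without each mutant replicate and without control replicate 2, with limma adjusted p from 0.0506 to 0.117. The highest control value of Baz2a was on the array with the highest marrow signal, described below.

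Myc, the transcription factor named above, had 10.63, 10.77 and 10.66 in mutant replicates 1, 2 and 3, against 10.63, 10.43 and 10.20 in the controls. The lowest mutant lay just above the highest control, so the groups did not overlap, but the controls spread widely. The difference of 0.27 (SE 0.12, 95% interval -0.02 to 0.55) was not called, with a limma adjusted p of 0.196. It was 0.16 without control replicate 3 and 0.37 without control replicate 1. Of 10 partners and antagonists of Myc, 0 rose and 1 fell. That was Mxd1, which competes with Myc for their common partner Max; it had 7.84, 7.52 and 7.55 in mutants, against 9.32, 9.77 and 10.40 in controls. Mxd1 fell by 2.19 (SE 0.25, limma adjusted p = 0.00206), and its control levels followed the same order over arrays as the marrow markers.

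The box C/D proteins and nucleolar organisers included 1 call among 7 measured genes, and all 7 differences were above 0. Gnl3, the nucleolar GTPase nucleostemin, had 8.81, 8.75 and 8.84 in mutant replicates 1, 2 and 3, against 8.51, 8.53 and 8.35 in the controls. It rose by 0.33 (SE 0.09, n = 3 per group), 1.26-fold, with a limma adjusted p of 0.0475. The groups did not overlap, but this p lies just under the threshold, and it reached 0.0955 with the arrays centred on their medians and 0.180 without mutant replicate 3.

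The core proteins of the box C/D particles, which guide ribose methylation of ribosomal RNA, overlapped between groups. Nop56 had 9.73, 9.69 and 9.97 in mutants, against 9.61, 9.55 and 9.72 in controls. Nop58 had 8.56, 9.03 and 8.85 in mutants, against 8.55, 8.74 and 8.44 in controls. Fbl, the methyltransferase fibrillarin, had 9.98, 10.20 and 10.30 in mutants, against 9.90, 10.10 and 10.38 in controls. The differences were 0.17, 0.24 and 0.03, and the spread of Fbl within the controls was larger than its difference. With single arrays left out, Nop56 lay between 0.09 (without mutant replicate 3) and 0.23, and Nop58 between 0.13 (without mutant replicate 2) and 0.36 (without mutant replicate 1). A second probe set of Fbl differed by 0.01.

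Ncl encodes nucleolin and Npm1 nucleophosmin, abundant nucleolar proteins that bind ribosomal RNA and assembling particles. Ncl had 9.75, 9.83 and 9.95 in mutant replicates 1, 2 and 3, against 9.77, 9.78 and 9.80 in the controls, a difference of 0.06 (95% interval -0.15 to 0.27). Npm1 had 10.02, 10.16 and 10.14 in mutants, against 10.19, 10.11 and 9.90 in controls, a difference of 0.04 (95% interval -0.20 to 0.28). Npm1 shares sequence with the annotated gene Gm15484, and 3 further probe sets assigned to both differed by -0.05, -0.03 and -0.04, so the sign depended on the probe set. Nolc1, a chaperone of small nucleolar particles, had 8.74, 8.97 and 9.08 in mutants, against 8.73, 8.62 and 8.77 in controls. Its difference of 0.22 was not called (limma adjusted p = 0.232).

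The box H/ACA proteins, which carry out pseudouridylation and also stabilise telomerase RNA, had 0 calls, with dyskerin close to the threshold on the lower side and its 3 partners overlapping between groups. Dkc1, which encodes the pseudouridine synthase dyskerin, had 8.63, 8.75 and 8.84 in mutant replicates 1, 2 and 3, against 9.06, 9.04 and 9.10 in the controls. Every mutant array was below every control array. The difference was -0.33 (SE 0.09, n = 3 per group, 95% interval -0.54 to -0.12), and the limma adjusted p of 0.0503 just missed the threshold. The limma adjusted p was 0.0360 with the filter on dim probe sets at the median and 0.0497 with probe sets averaged per gene. With a pseudocount of 16 or an intensity trend it lay between these. It was 0.0615 with quantile normalisation, 0.0623 with median centring, 0.0656 with no filter and 0.0893 with the replicate number as a block. With single arrays left out it was 0.0657 to 0.165, and the difference was -0.37 to -0.27.

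Gar1, Nhp2 and Nop10 bind dyskerin in the same particle. Gar1 had 9.48, 9.38 and 9.54 in mutants, against 9.35, 9.37 and 9.53 in controls. Nhp2 had 8.29, 8.40 and 8.40 in mutants, against 8.48, 8.09 and 8.36 in controls. Nop10 had 9.92, 9.87 and 9.91 in mutants, against 9.94, 9.79 and 9.84 in controls. All 3 overlapped between groups, with differences of 0.05, 0.05 and 0.04 (95% intervals between -0.22 and 0.32). Whether the difference of Dkc1 differs from that of its partners was not tested.

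Of 11 genes of small subunit processing, 0 were called by limma and 3 had an unadjusted p under 0.05, Wdr75 and Wdr43 higher and Ltv1 lower. Ltv1, an assembly factor that leaves the small subunit late in its maturation, had 7.89, 8.01 and 8.23 in mutant replicates 1, 2 and 3, against 8.41, 8.43 and 8.40 in the controls. The controls were nearly equal and every mutant lay below them. The difference was -0.37 (SE 0.11, limma adjusted p = 0.0606), the lowest among the 42 genes, with a 95% interval of -0.62 to -0.12. The limma adjusted p of Ltv1 was 0.0468 with the filter at the median, 0.0762 with no filter and 0.0925 with the replicate number as a block. With single arrays left out it was 0.0602 to 0.183, and the difference was -0.46 to -0.29.

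Wdr43 and Wdr75 belong to the complex that first binds the growing precursor RNA and supports its transcription. Wdr43 had 9.21, 9.34 and 9.39 in mutants, against 9.14, 9.11 and 8.90 in controls. Wdr75 had 8.22, 8.12 and 8.37 in mutants, against 8.05, 7.92 and 7.90 in controls. In both, the groups did not overlap, and the differences of 0.26 and 0.28 had limma adjusted p of 0.134 and 0.110. Heatr1, of the same complex, had 7.60, 7.70 and 7.90 in mutants, against 7.74, 7.79 and 7.81 in controls, with a difference of -0.05 and overlapping groups.

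Nop14, a core factor of the small subunit precursor, had 7.99, 8.08 and 8.10 in mutants, against 7.80, 7.93 and 7.85 in controls, without overlap (difference 0.19, limma adjusted p = 0.178). Utp20, a scaffold of the same precursor, had 6.88, 6.87 and 6.96 in mutants, against 7.03, 7.06 and 7.02 in controls, also without overlap but lower (difference -0.14, limma adjusted p = 0.319). These separations were small, and neither passed the test. The groups overlapped for Tsr1 (0.14) and Bysl (0.02), which act late in small subunit maturation, and for Rrp9 (0.11), Noc4l (0.03) and Rrp12 (-0.12).

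A further list of 36 small subunit factors, 35 of them measured, had 1 rise and 0 falls, with a median of 0.09 and 6 unadjusted p under 0.05. The call was Rcl1, in yeast a factor of the small subunit precursor, which had 8.09, 8.15 and 8.26 in mutants, against 7.82, 7.42 and 7.82 in controls. Rcl1 rose by 0.48 (SE 0.13, limma adjusted p = 0.0481), a call that ended without each mutant replicate and without control replicate 2 (limma adjusted p from 0.103 to 0.174).

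Large subunit processing had 1 call among 13 measured genes, and the highest median of the roles with more than 1 gene, 0.20. Ebna1bp2, whose yeast counterpart is needed for early large subunit particles, had 7.81, 7.87 and 7.95 in mutant replicates 1, 2 and 3, against 7.63, 7.52 and 7.51 in the controls. Every mutant array was above every control array. Ebna1bp2 rose by 0.32 (SE 0.09, n = 3 per group), 1.25-fold, with a limma adjusted p of 0.0483, close to the threshold. It was 0.0973 with median centring and 0.194 without mutant replicate 3.

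Several other factors of early large subunit particles had values on the same side without a call. Noc3l, whose yeast counterpart helps move the particle out of the nucleolus, had 7.53, 7.44 and 7.65 in mutants, against 7.33, 7.23 and 7.13 in controls (difference 0.31, limma adjusted p = 0.0750). Gnl2, a GTPase related to nucleostemin, had 8.45, 8.40 and 8.49 in mutants, against 8.24, 8.21 and 8.02 in controls (difference 0.29, limma adjusted p = 0.0805). Nop16 had 9.20, 9.15 and 9.29 in mutants, against 9.10, 8.92 and 8.91 in controls (difference 0.24, limma adjusted p = 0.141). In all 3 the groups did not overlap, and control replicate 1 was the control nearest to the mutants.

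Pes1, Bop1 and Wdr12 form one complex that large subunit maturation needs, and all 3 differences were below 0. Pes1 had 7.53, 7.41 and 7.58 in mutants, against 7.78, 7.61 and 7.68 in controls, without overlap (difference -0.18, limma adjusted p = 0.25). Bop1 had 7.95, 7.97 and 8.08 in mutants, against 8.23, 8.07 and 8.17 in controls (difference -0.15). Wdr12 had 7.17, 7.27 and 7.42 in mutants, against 7.40, 7.47 and 7.17 in controls (difference -0.06). None of the 3 passed the test, and only Pes1 had separate groups. A second probe set of Wdr12 was not above the background on any array.

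Of the remaining large subunit genes, Rrs1, which recruits proteins to the early particle, differed by 0.28 near the background, and the ribosomal RNA methyltransferases Nop2 and Ftsj3 by 0.22 and 0.20, all with overlapping groups. Rrp1b differed by 0.10. Ddx21, a nucleolar RNA helicase, had 9.31, 9.49 and 9.64 in mutants, against 9.28, 9.45 and 9.61 in controls, a difference of 0.04 that was well within the spread of either group. Mybbp1a, a nucleolar protein that binds Myb, differed by 0.03.

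A further list of 37 large subunit factors, 36 of them measured, had 0 calls by limma and 10 unadjusted p under 0.05, with a median of 0.07. The smallest p belonged to Brix1 and Gtpbp4, with differences of 0.33 each and limma adjusted p of 0.0548 and 0.0676. Subunits and regulators of RNA polymerase III, which makes transfer RNA and the small ribosomal RNA, also had 0 calls among 13 and 4 unadjusted p under 0.05, with a median of -0.02. There, Crcp differed by -0.26 and Maf1, the repressor of that polymerase, by -0.49, with limma adjusted p of 0.0786 and 0.108. Of 79 cytosolic ribosomal protein genes, 54 had a tested probe set of their own. Of these, 51 (94.4%) had differences above 0, against 55.0% of all genes, with a median of 0.09. In 24 every mutant array was above every control array, or 44.4% against 20.0% of all genes. Every mutant array was below every control array in 0 of them, against 16.7% of all genes. The share of all genes either way was 36.7%. By limma 3 of the 54 rose and 0 fell. Rpl12 rose by 0.59, Rpl26 by 0.41 and Rpl22 by 0.32, with limma adjusted p of 0.0211, 0.0481 and 0.0355. Each of these 3 calls ended without mutant replicate 1, without mutant replicate 3 and without control replicate 2. The call of Rpl26 also ended without mutant replicate 2 or control replicate 3, and that of Rpl22 without mutant replicate 2 or control replicate 1. The limma adjusted p reached 0.0962 for Rpl12, 0.158 for Rpl26 and 0.128 for Rpl22 with single arrays left out. Ribosomal protein genes have many processed copies in the genome, so probe sets may detect more than the named gene.

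**Figure D3:**
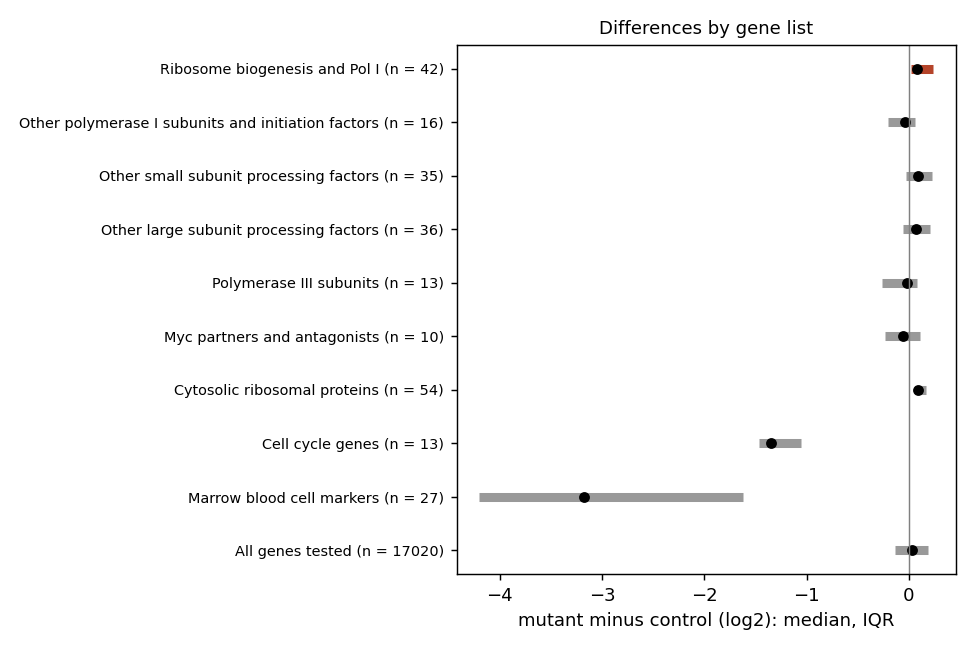
Median difference between mutant and control arrays (point) and interquartile range (bar) for each list, on the log2 scale of the horizontal axis. The ribosome biogenesis list and the related lists lie within 0.1 of 0, the cell cycle list lies at -1.35 and the marrow blood cell markers lie at -3.18.

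Marker genes of other cell types differed between the groups, beside the differences given above. Markers of the blood lineages of marrow (erythroid, neutrophil and B lymphoid) were lower in mutants. Of 27 measured genes 22 were called lower, with a median difference of -3.18 on the log2 scale. Sums of log2(intensity + 1) over the 27 were 162.5 to 169.1 in mutants, against 226.6 to 264.4 in controls. Of these 27, 5 exceeded the background on every array, and none was at 0. Their mean was 6.26, 6.25 and 6.02 in mutant replicates 1, 2 and 3, against 8.39, 9.08 and 9.79 in control replicates 1, 2 and 3. Genes of the cell cycle were lower too, with 12 of 13 called and a median of -1.35. Mki67, the proliferation antigen, had 8.19, 8.32 and 8.33 in mutants, against 9.42, 10.24 and 10.99 in controls (difference -1.94, SE 0.34, limma adjusted p = 0.0105). Cdc6, which loads the replicative helicase, had 5.72, 5.78 and 5.61 in mutants, not above the background on any of these arrays, against 6.72, 7.66 and 8.65 in controls. It was at least 2.14-fold lower (measured means 5.70 in mutants and 7.68 in controls, limma adjusted p = 0.0199, up to 0.0776 with single arrays left out). Of the fibrous tissue and endothelial markers, 9 of 11 were called higher, of the macrophage markers 7 of 7, and of the osteoblast markers 1 of 4. Cartilage markers, by contrast, had 1 call higher among 14 and a median of -0.06, and all 14 exceeded the background on every array.

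**Figure D4:**
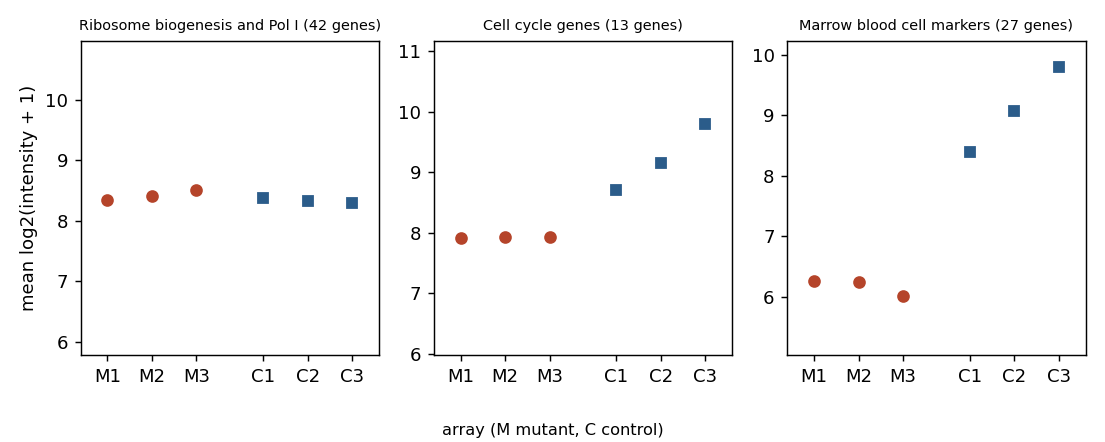
Mean log2(intensity + 1) per array for the 42 ribosome biogenesis genes, the 13 cell cycle genes and the 27 marrow blood cell markers, with mutant arrays (M) as circles left of control arrays (C) as squares; each panel spans the same range. The ribosome biogenesis mean stays between 8.30 and 8.51 on all arrays, while the other means are higher in all controls than in any mutant.

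The mean of the 42 genes was 8.34, 8.41 and 8.51 in mutant replicates 1, 2 and 3, against 8.38, 8.32 and 8.30 in control replicates 1, 2 and 3, with overlapping groups. Of the 42, 14 were highest on the control array with the least marrow signal, intermediate on the next and lowest on the array with the most, among them Myc, Npm1, Gnl2, Noc3l and Ebna1bp2. In 8 genes the order was the opposite, among them Polr1c, Fbl, Ncl and Ddx21. The shares of all genes with these orders were not counted, so neither count has a background beside it. Control replicate 1 gave the highest control value for 22 of the 42 genes, against 31.9% of all genes tested. Control replicate 3 did so for 12, against 44.4%. The mean of the marrow markers was also added to the fit as a covariate. It separates the groups completely, and this fit extends the trend within each group over a range without arrays. With it 0 of the 42 genes were called, beside only 37 of all 17020 genes tested. The median of the 42 was -0.18, against 0.16 over all genes in the same fit. Against the control with the least marrow signal alone (control replicates 2 and 3 left out, no test), the median was 0.04, and Polr1c, Gnl3, Ebna1bp2, Dkc1 and Ltv1 differed by 0.42, 0.29, 0.24, -0.32 and -0.36. In that setting 8 of the 42 genes moved by at least the spread between replicates. Of these, Rrn3 (-0.09), Nop10 (-0.04), Noc4l (-0.11) and Rrp1b (-0.13) changed sign. Polr1b, Npm1, Nhp2 and Bysl, which moved by less, turned below 0 too. The others were Nop16 (0.11), Pes1 (-0.27), Ddx21 (0.20) and Ebna1bp2, and Myc differed by 0.06 there. In such bulk samples, fewer cells of a type and less RNA per cell cannot be told apart.

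Windows from 250 bases before to 50 after the transcription start were found for 37 of the 44 genes in RefSeq (GRCm38.p6). For each of 5 roles the gene with the largest difference is printed, to show the start sites of the genes the results turn on, 5′ to 3′ along the gene's strand, with CACGTG (the E-box that Myc and Max bind), GGGCGG (the GC box) and CCGGAAG (the core that ETS factors bind) in capitals on either strand. The genes are the 3 that were called and the 2 with the lowest differences.
Polr1c (GRCm38.p6, chr17:46247996-46248295, minus strand): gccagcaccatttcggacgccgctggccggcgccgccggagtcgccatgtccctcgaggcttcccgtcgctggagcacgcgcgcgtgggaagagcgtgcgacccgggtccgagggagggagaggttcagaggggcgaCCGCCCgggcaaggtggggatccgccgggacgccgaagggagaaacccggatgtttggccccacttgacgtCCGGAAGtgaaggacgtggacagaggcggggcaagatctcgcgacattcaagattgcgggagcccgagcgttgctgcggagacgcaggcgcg
Gnl3 (GRCm38.p6, chr14:31019082-31019381, minus strand): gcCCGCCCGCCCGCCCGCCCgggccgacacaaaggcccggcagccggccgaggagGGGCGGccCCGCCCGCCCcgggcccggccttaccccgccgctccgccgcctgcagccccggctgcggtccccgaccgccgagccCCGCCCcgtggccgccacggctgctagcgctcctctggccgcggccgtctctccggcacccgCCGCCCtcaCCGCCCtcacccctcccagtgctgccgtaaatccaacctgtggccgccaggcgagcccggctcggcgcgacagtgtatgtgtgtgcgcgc
Ebna1bp2 (GRCm38.p6, chr4:118620549-118620848, plus strand): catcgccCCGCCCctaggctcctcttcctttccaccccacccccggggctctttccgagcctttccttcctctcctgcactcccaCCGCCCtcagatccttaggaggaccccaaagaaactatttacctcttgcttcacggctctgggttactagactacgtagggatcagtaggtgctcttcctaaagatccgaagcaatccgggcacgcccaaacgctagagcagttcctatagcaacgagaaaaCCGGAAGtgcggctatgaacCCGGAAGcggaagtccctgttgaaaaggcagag
Dkc1 (GRCm38.p6, chrX:75095604-75095903, plus strand): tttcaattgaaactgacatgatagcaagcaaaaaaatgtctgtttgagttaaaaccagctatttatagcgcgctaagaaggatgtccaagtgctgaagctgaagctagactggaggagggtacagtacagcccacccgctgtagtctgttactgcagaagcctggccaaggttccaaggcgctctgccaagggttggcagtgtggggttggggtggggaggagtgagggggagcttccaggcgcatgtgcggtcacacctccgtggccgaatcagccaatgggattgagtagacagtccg
Ltv1 (GRCm38.p6, chr10:13193088-13193387, minus strand): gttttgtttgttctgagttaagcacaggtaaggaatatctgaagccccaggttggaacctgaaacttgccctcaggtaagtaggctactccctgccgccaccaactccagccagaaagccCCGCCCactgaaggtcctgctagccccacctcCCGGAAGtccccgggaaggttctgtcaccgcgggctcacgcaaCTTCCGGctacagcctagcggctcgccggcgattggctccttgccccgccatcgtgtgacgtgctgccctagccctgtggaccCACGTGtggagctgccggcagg

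None of the 3 called genes had an E-box in this window, and Ltv1 had 1. Gnl3 had 10 GC boxes, counted with overlaps, whereas Dkc1 had neither a GC box nor an ETS core. Of the 37 genes, 8 (21.6%) had an E-box, against 10.3% of 13405 tested genes with a window and 8.09% of all 27025 genes with one. The 8 were Rrn3, Wdr43, Utp20, Tsr1, Ltv1, Nop2, Pes1 and Mybbp1a. Their median difference was 0.03, against 0.11 for the 27 measured genes without an E-box. The related letters CACGCG, searched likewise on both strands, were in 32.4%, against 16.7% of tested genes and 10.5% of all genes.

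A GC box was present in 81.1% of the 37 windows, against 59.1% of tested genes and 38.2% of all genes. An ETS core was present in 35.1%, against 15.3% of tested genes and 9.93% of all genes, and TATAAA in 5.41%, against 11.3% and 15.7%. A gene counts as holding a motif if any of its windows does, and a match describes letters, not binding.

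Many of these genes start head to head with a neighbour on the other strand. The window overlapped an opposite window of another gene for 13 of 37 (35.1%), against 15.3% of tested genes with a window. All 3 called genes were among them, and none of the 3 neighbours was called. Yipf3, beside Polr1c, differed by -0.06, Pbrm1, beside Gnl3, by -0.27, and Cfap57, beside Ebna1bp2, by 0.15, with limma adjusted p of 0.717, 0.234 and 0.401. These neighbours were looked up after the values of the called genes were seen.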

How the data were processed

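The authors deposited linear probe set intensities for 35512 probe sets on 6 arrays. The sources used here do not say how these intensities were summarised and normalised. Array medians were 82.4 to 90.5, and the number of arrays limits the precision. Gene names came from the array's annotation, brought up to date through gene numbers with RefSeq (GRCm38.p6, no gene coordinates used): 21789 probe sets had 1 gene, 1621 several and 12102 none listed, and 21698 of the first matched by gene number. All 6 value columns matched a sample and 0 were left out.

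Values were taken as log2(intensity + 1), which slightly understates changes of dim genes. The dimmest 25% of probe sets (mean under 5.56) were left out, and the probe set with the highest mean was kept per gene. Mutant minus control was fitted with limma 3.58.1 in R 4.3.3 (lmFit, eBayes, two-sided) on all 17020 genes, with Benjamini-Hochberg adjustment over them. On simulated arrays of this comparison and size, 24.8%, 78.5% and 93.3% of genes changed by 0.5, 1 and 2 on the log2 scale were called, and 27 of 84100 unchanged genes. The changed genes numbered 335, 335 and 330, a far smaller share than the 14.7% of genes called here. The adjustment of p depends on that share, so these rates do not give the sensitivity of the comparison itself. An exact permutation test of 3 against 3 cannot go below 0.1 and was not used. The labels do not say whether replicate numbers pair the samples. Deviations from the group means of same-numbered arrays correlated at 0.08, 0.21 and -0.08 over genes, and those of differently numbered arrays at -0.18 to 0.11. So few arrays cannot settle whether the samples were paired.

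The genes and lists were chosen with earlier results of these data known. Rule for names: all 44 genes, Stk11, and of each related list up to 4 called genes with the largest difference (where none was called, the 2 with the smallest p); of each marker list at most 2 called genes, of which Cdc6 and Mki67 are given. Head-to-head neighbours and motif searches were added after the values were seen.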

Additional observations from a re-analysis of the deposited data

How the results depend on the processing

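Of the 3 rises, 3 were found with quantile normalisation, the filter at the median, the mean of probe sets or a pseudocount of 16, 2 with an intensity trend, 1 with median centring or no filter, and 0 with the replicate number as a block or the marrow covariate (0 to 3 with single arrays left out). Falls numbered 2 with the filter at the median, 1 with the mean of probe sets, a pseudocount of 16 or an intensity trend, and 0 otherwise. Over all genes, calls numbered 2496 in the reported fit, 2031 with the replicate block and 37 with the marrow covariate. They numbered 936 to 3282 with single arrays left out. The numbers of the replicate block are not known to pair the samples. The median of 0.08 was 0.04 to 0.13 with single arrays left out.

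Among related lists, rises of other small subunit factors numbered 0 with median centring, no filter, the replicate block or the marrow covariate, and 2 with the filter at the median, a pseudocount of 16 or an intensity trend; with these last settings 1 other large subunit factor and 1 Myc partner rose. With single arrays left out, rises were 0 to 2 for other small and 0 to 3 for other large subunit factors, 0 to 1 for Myc partners and 0 to 3 for ribosomal proteins, falls were 0 to 2 for other polymerase I genes and 0 to 1 for other small subunit factors, and the median of other polymerase I genes was -0.107 to -0.017. The median of Myc partners, -0.055, turned to 0.062 without control replicate 3 (-0.12 to -0.031 without any other array). With the marrow covariate, no list kept a call (0 each), and 37 of all 17020 genes tested were called. Medians were then -0.18 for the 42 genes and 0.16 over all genes. They were -0.18, -0.073 and -0.073 for other polymerase I, small and large subunit genes, and 0.24 for Myc partners. The cause was not tested.

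Signs turned with the marrow covariate for 20 of the 42 genes: Polr1b -0.25, Rrn3 -0.48, Myc -0.57, Nop58 -0.024, Npm1 -0.56, Gnl3 -0.016, Nhp2 -0.21, Nop10 -0.16, Rrp9 -0.34, Wdr43 -0.26, Wdr75 -0.11, Noc4l -0.53, Tsr1 -0.53, Bysl -0.69, Nop2 -0.68, Nop16 -0.19, Rrs1 -0.10, Rrp1b -0.59, Gnl2 -0.17 and Noc3l -0.15. They also turned for Stk11 (0.27), Baz2a (0.26), Brix1 (-0.10), Gtpbp4 (-0.031), Maf1 (0.77), Mxd1 (0.044), Rpl26 (-0.054), Cdc6 (1.95) and Mki67 (1.18). Other differences among the 42 moved up in this fit, among them Ubtf (1.01), Fbl (0.90), Ddx21 (0.58), Ftsj3 (0.53) and Polr1c (0.50). The share of all genes whose sign turned was not counted. With single arrays left out, signs turned for genes near 0: Heatr1 (-0.13 to 0.022), Fbl (-0.083 to 0.16), Noc4l (-0.029 to 0.100), Bysl (-0.093 to 0.14), Ddx21 (-0.047 to 0.12), Mybbp1a (-0.045 to 0.064), Nhp2 (-0.056 to 0.14), Wdr12 (-0.15 to 0.0024), Rrn3 (-0.023 to 0.10) and Npm1 (-0.043 to 0.099). Counts of calls were not made without control replicates 2 and 3, since no spread between controls is left.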
